A study of Mus musculus with 24 samples.

Results

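The AP-1 family is described here in mouse prefrontal cortex (wild type, adult males): 7 genes, Fos, Fosb and Fosl2 of the Fos family, Jun, Junb and Jund of the Jun family, and Atf3, a related factor. They were taken by gene symbol, as 7 of the 45777 genes in the deposited table, and all 7 passed the filter on low counts that left 18380 genes for testing. The study measured bulk RNA-seq in 24 libraries, 6 in each of 4 groups. Control mice had no treatment. MS mice went through maternal separation, the repeated removal of pups from their mother, used as a model of stress in early life. Control_EC12 mice received EC-12, a para-probiotic of heat-killed Enterococcus faecalis, and MS_EC12 mice had both separation and EC-12, the supplement lasting 5 weeks. The sources used here do not give the hours of separation, the route of supplementation or the age in weeks. Replicates are numbered 1 to 6 in each group, with no label tying a library to its own animal. The p-values therefore measure the spread between these libraries, which may be in part technical.

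AP-1 is a dimeric transcription factor built from basic leucine zipper proteins. Fos proteins do not pair with themselves and need a Jun partner, whereas Jun proteins can pair with each other, with Fos proteins or with ATF proteins. In cortical neurons Fos, Fosb and Junb are immediate early genes: synaptic activity raises their transcripts within minutes through CREB and the serum response factor, and the transcripts decay quickly. Jun is induced by activity and by stress kinases of the JNK group, Jund is expressed steadily, Fosl2 follows more slowly, and Atf3 is low in resting tissue and rises with injury or stress. Transcript levels at death therefore depend on what an animal experienced shortly before.

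The stretches upstream of the transcription start are shown for the 5 members whose window holds one of the cyclic AMP or Jun-type response elements, since activity-induced genes are known to be switched on through them. Each line gives the 140 bases that end just before the RefSeq start (GRCm38.p6), 5′ to 3′ on the gene's strand, at chr12:85473750-85473889 for Fos (plus strand), chr7:19310046-19310185 for Fosb (minus), chr4:95052223-95052362 for Jun (minus), chr8:84978749-84978888 for Junb (minus) and chr1:191183334-191183473 for Atf3 (minus). Capitals mark TGACG, the core of the cyclic AMP response element, on either strand, and in Jun the element TGACATCA.
Fos: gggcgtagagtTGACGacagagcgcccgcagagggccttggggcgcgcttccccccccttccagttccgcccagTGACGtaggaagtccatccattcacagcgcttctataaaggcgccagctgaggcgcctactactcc
Fosb: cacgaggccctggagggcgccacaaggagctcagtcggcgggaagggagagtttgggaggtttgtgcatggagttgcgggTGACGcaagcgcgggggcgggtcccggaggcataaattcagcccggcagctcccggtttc
Jun: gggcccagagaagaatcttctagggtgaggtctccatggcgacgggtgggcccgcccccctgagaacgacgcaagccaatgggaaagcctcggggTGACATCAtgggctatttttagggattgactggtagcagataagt
Junb: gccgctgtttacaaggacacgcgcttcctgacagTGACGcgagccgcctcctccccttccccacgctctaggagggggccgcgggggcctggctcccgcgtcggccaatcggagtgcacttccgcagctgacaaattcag
Atf3: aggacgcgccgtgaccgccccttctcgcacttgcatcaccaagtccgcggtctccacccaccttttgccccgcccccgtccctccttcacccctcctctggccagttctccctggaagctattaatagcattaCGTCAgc

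Counted back from the start, TGACG lay at −129 to −125 and at −66 to −62 in Fos, at −60 to −56 in Fosb, at −106 to −102 in Junb and, on the opposite strand, at −7 to −3 in Atf3. In windows of 300 bases (250 before the start and 50 after it), 4 of the 7 members held it, against 20.8% of 32851 RefSeq windows searched on both strands. TGACATCA lay at −45 to −38 in Jun and in 3.62% of all windows. The AP-1 site TGANTCA was in none of the 7 windows and in 7.81% of all, and the CArG box, the serum response factor's element, was in none of them and in 1.63% of all. These are matches of letters, not measured binding, and elements more than 250 bases before the start were not searched for. Jund and Fosl2 held none of the 4 motifs in their windows.

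In GRCm38 coordinates, Fos (Gene ID 14281) lies on chromosome 12 from 85473890 to 85477274, Fosb (14282) on chromosome 7 from 19302696 to 19310118 and Fosl2 (14284) on chromosome 5 from 32136472 to 32157840. Jun (16476) lies on chromosome 4 from 95049036 to 95052222. Junb (16477) and Jund (16478) share chromosome 8, at 84976909 to 84978748 and at 70697739 to 70700616, and Atf3 (11910) lies on chromosome 1 from 191170296 to 191183333. No span overlaps another gene. Within 3000 bases lie Gm26802 beside Fosb, Junos beside Jun, Prdx2 beside Junb and Iqcn beside Jund. For the authors' counting, no source used here gives the strand setting. Counts are per gene, so the full-length and truncated products of Fosb cannot be told apart.

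Libraries held 26250197 to 39252382 counts. Cortical markers were present in all: Slc17a7, the vesicular glutamate transporter of cortical excitatory neurons, had 801 to 1220 TPM, and all 8 markers of cortical layers were present in every group. All 6 olfactory bulb markers were found and none was at 0 in all libraries of a group. Their summed TPM was 33.4 to 221 in Control, 23.8 to 186 in MS, 132 to 439 in Control_EC12 and 53.9 to 348 in MS_EC12. The sum of 6 striatum markers was 783 to 898, 748 to 1110, 535 to 1130 and 496 to 1250 TPM in the same order of groups. That of 6 hypothalamus and septum markers reached 118 TPM, in MS_EC12. Ttr, the main choroid plexus transcript, reached 106 TPM in MS replicate 3 and 1104 TPM in MS_EC12 replicate 6, against at most 9.36 TPM elsewhere. In 7 libraries expression relative to the mean of all libraries rose with the GC content of genes (a GC slope above 0, in log2 units per 10 percentage points): 1 MS, 2 Control_EC12 and 4 MS_EC12 libraries. In the other 17 it fell. The cause of the split was not tested. Comparisons were made in all 24 libraries and again in those 17, where MS_EC12 keeps only replicates 1 and 2.

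Levels can be compared between genes only per length, so the deposited TPM values (transcript abundance scaled to a fixed total per library) were used. Junb was highest, with a median of 101 TPM (55.8 to 132), followed by Jund with 87.4 TPM (65.4 to 114), and Junb exceeded Jund in 14 of 24 libraries. Jun (41.7 TPM, 28.6 to 57.2) and Fos (41.5 TPM, 24.6 to 79.0) were next, and Jun exceeded Fos in 10 of 24. These neighbouring pairs thus changed places from library to library. Fosl2 had a median of 20.7 TPM (12.2 to 33.4), Fosb 14.5 TPM (7.64 to 28.5) and Atf3 2.64 TPM (1.12 to 9.27). Jund was above Jun, Fos above Fosl2 and Fosb above Atf3 in 24 of 24 libraries, and Fosl2 was above Fosb in 21. By group median, the places of Junb and Jund, and of Jun and Fos, differed: Junb and Fos led their pairs in Control and Control_EC12, and Jund and Jun led in MS and MS_EC12. In MS the medians of Jund and Junb were close, at 83.2 and 81.5 TPM. In MS_EC12 Jund had 97.57 to 113.6 TPM in replicates 3 to 6, of GC slope above 0, and 65.42 and 72.84 TPM in replicates 1 and 2. In CPM divided by the length of the longest transcript, Jund came before Junb and Fos before Jun.

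**Figure D1:**
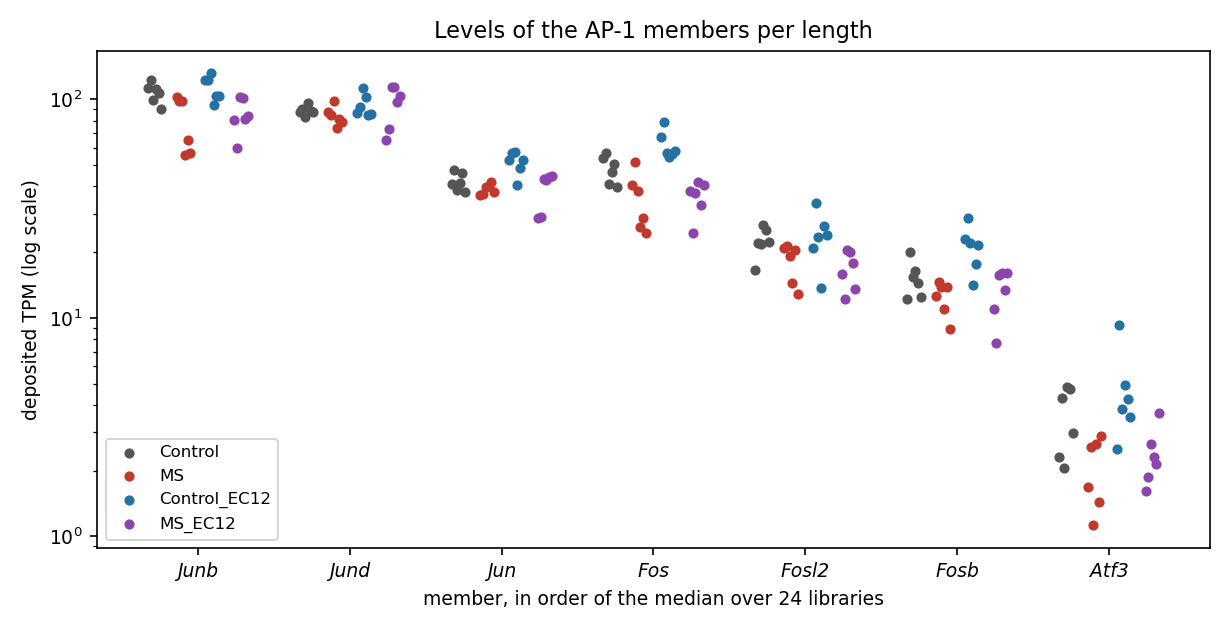
Deposited TPM of the 7 members on a log axis, 1 point per library and 1 colour per group, with members in order of their median over 24 libraries. Junb and Jund overlap at the top, Jun and Fos overlap below them, and Atf3 lies lowest at 1.12 to 9.27 TPM.

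The values that follow are CPM, counts scaled to library size after TMM normalization, which compare 1 gene between libraries. Fos, the founding member of the family, ran from 36.1 to 49.1 CPM in Control (median 42.3), 21.8 to 44.4 in MS (29.6), 48.3 to 67.1 in Control_EC12 (54.1) and 23.0 to 40.7 in MS_EC12 (34.5). Every Control_EC12 library stood above every MS_EC12 library, and all MS libraries but replicate 2 (44.4 CPM) were below every Control library, with replicates 4, 5 and 6 lowest (23.1, 25.3 and 21.8 CPM). Fosb, which neurons induce with Fos and whose truncated product builds up with repeated stimulation, ran from 18.1 to 30.6 CPM in Control (23.5), 13.9 to 22.2 in MS (20.3), 26.6 to 43.0 in Control_EC12 (34.0) and 12.7 to 28.7 in MS_EC12 (24.5). The lowest Fosb values in MS_EC12 were in replicates 1 and 2 (17.2 and 12.7 CPM). Fosl2, the slower relative of Fos, ran from 38.6 to 64.8 CPM in Control, 31.8 to 51.0 in MS, 40.3 to 78.9 in Control_EC12 and 31.6 to 53.7 in MS_EC12, so that all 4 groups overlapped.

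Jun, the partner common to the Fos proteins, ran from 51.6 to 61.8 CPM in Control (53.3), 46.6 to 55.9 in MS (52.1) and 63.1 to 77.0 in Control_EC12 (69.8). In MS_EC12 its values were 38.2 and 41.0 CPM in replicates 1 and 2 and 62.2, 61.5, 63.6 and 67.9 CPM in replicates 3 to 6. Every Control_EC12 library was thus above every Control library, and MS_EC12 fell into 2 sets that follow the sign of the GC slope. Junb, an activity-induced Jun that is a weaker activator than Jun at many sites, ran from 71.6 to 92.3 CPM in Control (81.8), 77.8 to 102 in Control_EC12 (89.2) and 49.1 to 85.2 in MS_EC12 (70.6). In MS it was 76.1, 73.6 and 76.4 CPM in replicates 1 to 3 and 43.3, 50.0 and 44.1 CPM in replicates 4 to 6. The last 3 are the MS libraries in which Fos was also lowest.

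Jund, the steadily expressed Jun, ran from 99.4 to 114 CPM in Control (106), 89.8 to 119.8 in MS (98.7), 100.3 to 149 in Control_EC12 (105) and 79.0 to 147 in MS_EC12 (135). All 7 libraries of GC slope above 0 (119.8 to 149 CPM) exceeded all 17 others (79.0 to 114 CPM), whatever their group. The exonic GC content of Jund, 67.1%, is the highest of the 7 members, followed by Junb with 62.6%, and Atf3 has the lowest with 51.2%. Atf3, a stress-responsive factor that pairs with Jun proteins, had 1.73 to 3.95 CPM in Control, 0.95 to 2.4 in MS, 2.09 to 7.39 in Control_EC12 and 1.35 to 3.47 in MS_EC12. Its counts were 32 to 199 reads, the fewest of the members, and its highest value, in Control_EC12 replicate 2, came from the library with the highest olfactory bulb sum (439 TPM) and the highest Fos.

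**Figure D2:**
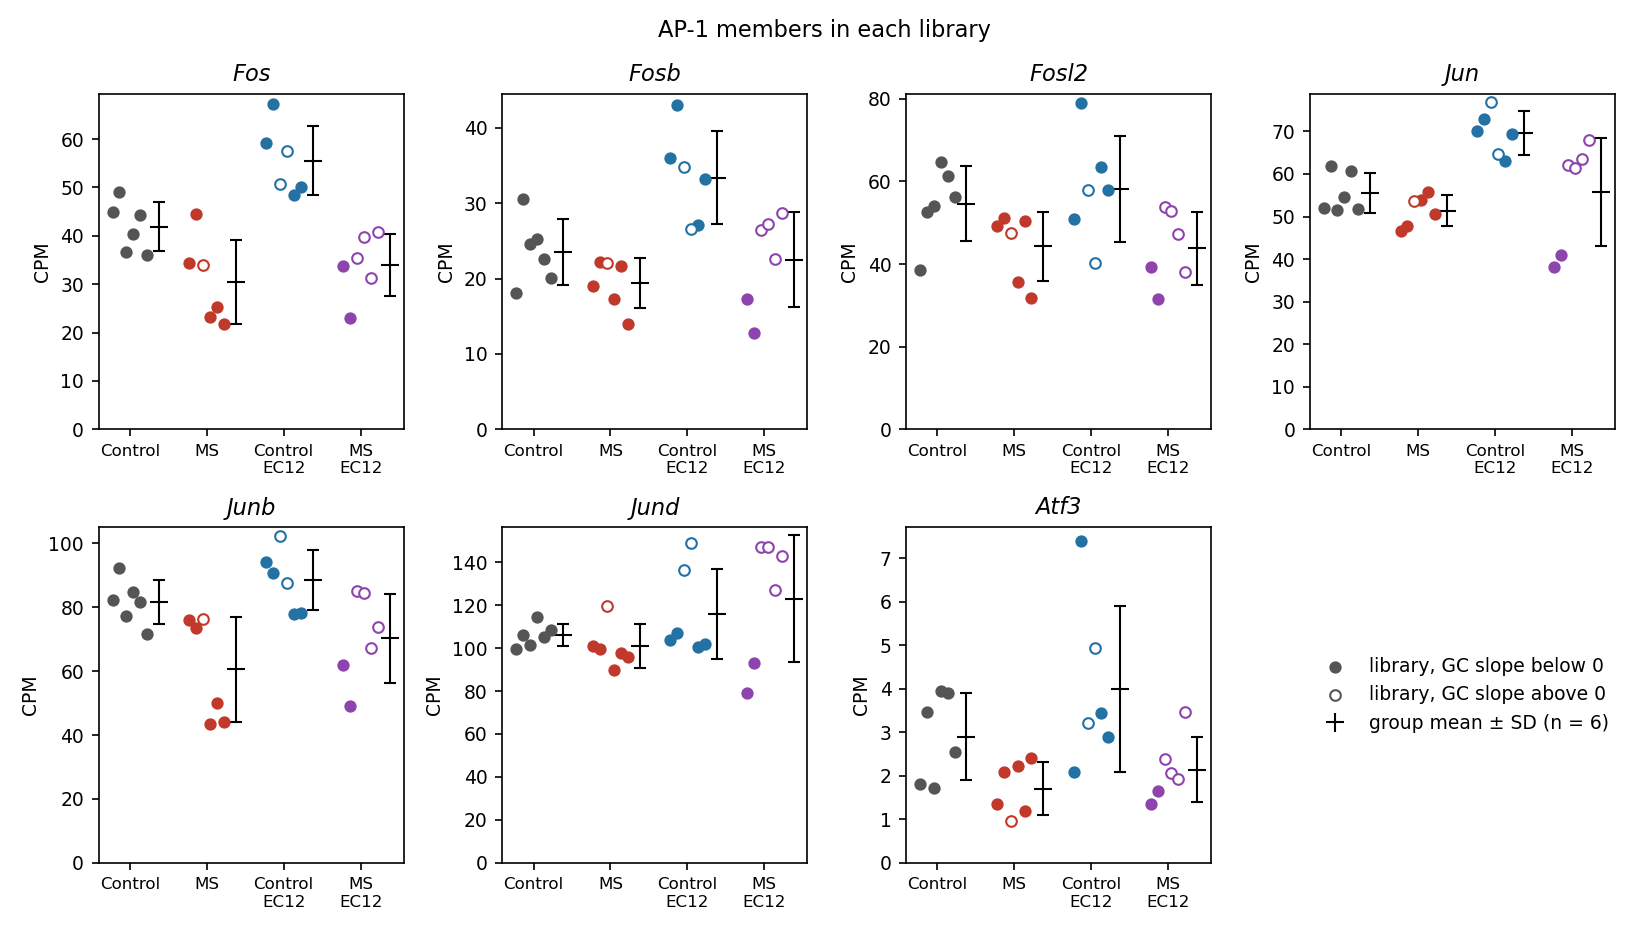
CPM of each member in each library by group, with replicates 1 to 6 from left to right, filled points for a GC slope below 0, open points for a slope above 0, and the group mean ± SD (n = 6) in black. Fos does not overlap between Control_EC12 and MS_EC12, Jun does not overlap between Control and Control_EC12, and the open points of Jund lie at 119.8 CPM or more.

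The spread within groups ordered the members from Atf3 (SD 0.537 on log2 CPM, pooled over the 4 groups) through Fosb (0.324), Fosl2 (0.296), Fos (0.28), Junb (0.269) and Jund (0.242) to Jun (0.204). The median over all genes tested was 0.239. As percentiles of those genes, Atf3 stood at 87.8, Jun at 40.0 and the other 5 between 50.7 and 65.7. Atf3, with the fewest counts, was thus the most variable member.

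Maternal separation without the supplement was examined by MS against Control. All 7 members had lower estimates in MS, with a median log2 fold change of −0.302 against −0.00574 over all genes, and none passed edgeR's quasi-likelihood test, in which 0.0326% of genes passed. Atf3 had −0.78 ± 0.302 (SE; adjusted p = 1), Fos −0.46 ± 0.151 (adjusted p = 0.796) and Junb −0.43 ± 0.145 (adjusted p = 0.817), the 3 members with an unadjusted p under 0.05, against 3.6% of all genes. Fosl2 had −0.30 ± 0.157, Fosb −0.28 ± 0.171, Jun −0.11 ± 0.111 and Jund −0.07 ± 0.130 (adjusted p = 1 for each). Junb, Fosb, Fosl2 and Atf3 were below the Control mean in 6 of 6 MS libraries and Fos, Jun and Jund in 5 of 6. No member's groups failed to overlap, which 0.718% of genes did. In bulk tissue, fewer cells of a type and less RNA per cell cannot be told apart, here and in each comparison that follows.

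Among the 17 libraries (5 MS and 6 Control), 6 of 7 members had an unadjusted p under 0.05 in MS against Control, against 10.7% of all genes, with a median of −0.323, and again none passed, with 0.435% of genes called. Junb came nearest with −0.50 ± 0.13 (adjusted p = 0.0957), then Fos with −0.49 ± 0.16 (adjusted p = 0.211). DESeq2 and limma on the TPM values also called none in all 24 libraries. In edgeR with the GC slope as a covariate and the replicate number as a block, Fos (−0.51 ± 0.11, adjusted p = 0.0401) and Junb (−0.48 ± 0.093, adjusted p = 0.0236) fell. That fit called 71 of 18380 genes. Neither member passed with the covariate alone (adjusted p 0.215 for Fos and 0.126 for Junb) or with the block alone (0.588 and 0.545).

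The supplement in normally reared mice was examined by Control_EC12 against Control. All 7 members had higher estimates in Control_EC12, with a median of 0.327 against 0.00989 over all genes, and none passed by edgeR, where 0.0218% of genes passed. Fosb had 0.51 ± 0.170 (adjusted p = 0.346), Fos 0.41 ± 0.151 (adjusted p = 0.411) and Jun 0.33 ± 0.111 (adjusted p = 0.352), each with an unadjusted p under 0.05 and each above the Control mean in 6 of 6 libraries. Over all genes 8.93% had such a p. Jun was the 1 member whose 6 libraries in each group did not overlap, as in 1.33% of genes. Atf3 had 0.45 ± 0.289, Jund 0.14 ± 0.130, Junb 0.12 ± 0.144 and Fosl2 0.09 ± 0.157. With 1 library left out Atf3 ran from 0.18 (without Control_EC12 replicate 2) to 0.59, and Jund from 0.055 (without Control_EC12 replicate 4) to 0.18. In the 17 libraries (4 Control_EC12 and 6 Control) Jun rose, by 0.31 ± 0.065 (adjusted p = 0.036; 0.456% of genes called), and Fosb had 0.56 ± 0.14 (adjusted p = 0.0955).

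The olfactory bulb markers also stood higher in Control_EC12, as given above. With their mean log2 CPM as a covariate, a fit added after seeing the data, Fos in Control_EC12 against Control had 0.18 ± 0.13, Fosb 0.37 ± 0.18 and Jun 0.33 ± 0.12, and the estimates of Junb and Fosl2 were −0.069 ± 0.13 and −0.039 ± 0.17. Jun was as large as without the covariate, and Fos, at 0.41 without it, was smaller.

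Separation among supplemented mice was examined by MS_EC12 against Control_EC12. Fos fell in MS_EC12, from 55.5 ± 7.15 to 34.0 ± 6.47 CPM (SD, n = 6), a 1.63-fold lower level and a log2 fold change of −0.71 ± 0.151 (SE; edgeR adjusted p = 0.042), lower in 6 of 6 libraries. It ranked 39th of 18380 genes by p, of which 48 passed (0.261%), and it was the 1 member to pass. It was also the 1 member without overlap, as in 0.468% of genes. Atf3 had −0.89 ± 0.293 (adjusted p = 0.219), Fosb −0.57 ± 0.170 (adjusted p = 0.173), Fosl2 −0.41 ± 0.157 (adjusted p = 0.261), Junb −0.33 ± 0.144 (adjusted p = 0.297) and Jun −0.32 ± 0.111 (adjusted p = 0.241). Those 5 had an unadjusted p under 0.05, against 15.9% of all genes, and each was below the Control_EC12 mean in 6 of 6 libraries. Jund had 0.08 ± 0.130 (adjusted p = 0.744).

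The call of Fos rested near the threshold. It was lost without Control replicate 3, 4 or 5 (adjusted p 0.052, 0.055 and 0.0532), without Control_EC12 replicate 1, 2, 5 or 6 (0.113, 0.109, 0.0633 and 0.0804) and without MS_EC12 replicate 3, 5 or 6 (0.11, 0.12 and 0.0574), and held in the other 14 of 24 such fits, with log2 fold changes from −0.76 to −0.62 over all 24. It was also lost without the 2 libraries of high Ttr (−0.76 ± 0.16, adjusted p = 0.0571), with only the 2 groups compared in the fit (−0.71 ± 0.13, adjusted p = 0.15) and with no filter on low counts (−0.70 ± 0.15, adjusted p = 0.0551). DESeq2 gave an adjusted p of 0.00251 for Fos and limma on log2(TPM + 1) 0.0452.

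With only the 17 libraries, in which MS_EC12 has 2 libraries against 4 of Control_EC12, all 7 members had lower estimates in MS_EC12 and all 7 had an unadjusted p under 0.05, against 11.1% of all genes. Jun (log2 fold change −0.80 ± 0.091, adjusted p = 0.000689) and Fosb (−1.21 ± 0.21, adjusted p = 0.0148) fell, where 0.162% of genes were called. Fos had −0.99 ± 0.23 (adjusted p = 0.0777), Fosl2 −0.82 ± 0.21 (adjusted p = 0.104), Junb −0.62 ± 0.19 (adjusted p = 0.193), Jund −0.26 ± 0.067 (adjusted p = 0.112) and Atf3 −1.38 ± 0.45 (adjusted p = 0.233). In the 6 libraries of slope above 0 (4 MS_EC12 and 2 Control_EC12), an alternative added after seeing the data, Fos had −0.54 ± 0.14, Jun −0.14 ± 0.13 and Jund −0.0054 ± 0.12, with an adjusted p of at least 0.923. Every Fos value of MS_EC12 lay below every one of Control_EC12 over all libraries. The same order on both sides of the split was thus fixed in advance and says nothing about the GC slope. The estimate for Jun was −0.80 on one side and −0.14 on the other, and the difference between the sides was not tested. With the slope of each library as a covariate, Fos (−0.80 ± 0.16, adjusted p = 0.0148), Fosb (−0.78 ± 0.16, adjusted p = 0.0286) and Jun (−0.50 ± 0.088, adjusted p = 0.00636) fell, where 41 of 18380 genes were called.

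The supplement in separated mice was examined by MS_EC12 against MS. No member passed in edgeR, where 0.163% of genes did, and 6 of 7 estimates were positive, with a median of 0.214. Jund had the 1 unadjusted p under 0.05, with 0.29 ± 0.130 (adjusted p = 0.139), against 31.8% of all genes under it. The others were 0.34 ± 0.304 for Atf3, 0.22 ± 0.171 for Fosb, 0.21 ± 0.144 for Junb, 0.16 ± 0.151 for Fos, 0.12 ± 0.111 for Jun and −0.02 ± 0.157 for Fosl2. All groups overlapped, as they did in all but 0.854% of genes. DESeq2 and limma on TPM called no member either. Jund passed when MS_EC12 replicate 1 was left out (0.38, adjusted p = 0.0285) and when replicate 2 was (0.35, adjusted p = 0.0466), the 2 MS_EC12 libraries of slope below 0.

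Set only against the 5 MS libraries of slope below 0, those 2 MS_EC12 libraries had lower estimates for all 7 members (median −0.299), with Jun at −0.37 ± 0.087 (adjusted p = 0.15) and Jund at −0.17 ± 0.065 (adjusted p = 0.391). No member passed, with 0.0733% of genes called. The estimates of Jun, Jund, Fos, Fosb, Junb and Atf3 between MS_EC12 and MS were therefore of opposite sign in the 24 and the 17 libraries. With 4 of 6 MS_EC12 libraries above 0 and 1 of 6 in MS, the GC slope and the supplement cannot be told apart in separated mice.

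Against untreated Control, MS_EC12 differed in 14.1% of all genes by edgeR (2594 genes, but 40 with the GC slope as a covariate and 89 without the 2 libraries of high Ttr). No member passed by edgeR, DESeq2 or limma on TPM, and none had an unadjusted p under 0.05 in edgeR, against 38.3% of all genes. Fosl2 had −0.32 ± 0.157 (adjusted p = 0.137) and Fos −0.30 ± 0.151 (adjusted p = 0.141), both below the Control mean in 6 of 6 libraries. Atf3 had −0.43 ± 0.295, Junb −0.22 ± 0.144, Fosb −0.06 ± 0.170, Jun 0.01 ± 0.111 and Jund 0.21 ± 0.130. No member's groups failed to overlap, against 5.19% of genes. Among the 17, Jun fell (−0.49 ± 0.086, adjusted p = 0.0142), as did Jund (−0.30 ± 0.064, adjusted p = 0.0312), where 1.01% of genes were called, and all 7 estimates were below 0. Jund passed in the opposite direction when MS_EC12 replicate 1 was left out of the 24 (0.31, adjusted p = 0.0363). With the olfactory bulb covariate Fos had −0.44 ± 0.12 (adjusted p = 0.0448), where 966 of 18380 genes were called.

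The interaction, whether the difference that EC-12 made depended on rearing, passed for no member by edgeR in 24 libraries, with 0.0109% of genes called, and no member had an unadjusted p under 0.05. DESeq2 and limma on TPM called none. The estimates ran from −0.29 ± 0.241 for Fosb and −0.25 ± 0.213 for Fos, through −0.21 ± 0.157 for Jun, −0.11 ± 0.421 for Atf3 and −0.11 ± 0.222 for Fosl2, to 0.10 ± 0.204 for Junb and 0.15 ± 0.184 for Jund. Jun passed among the 17 libraries, with −0.68 ± 0.11 (adjusted p = 0.0484; 0.0105% of genes called), and Fosb had −0.89 ± 0.25 (adjusted p = 0.491). The comparisons share groups, so their values for a member are not independent of one another.

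**Figure D3:**
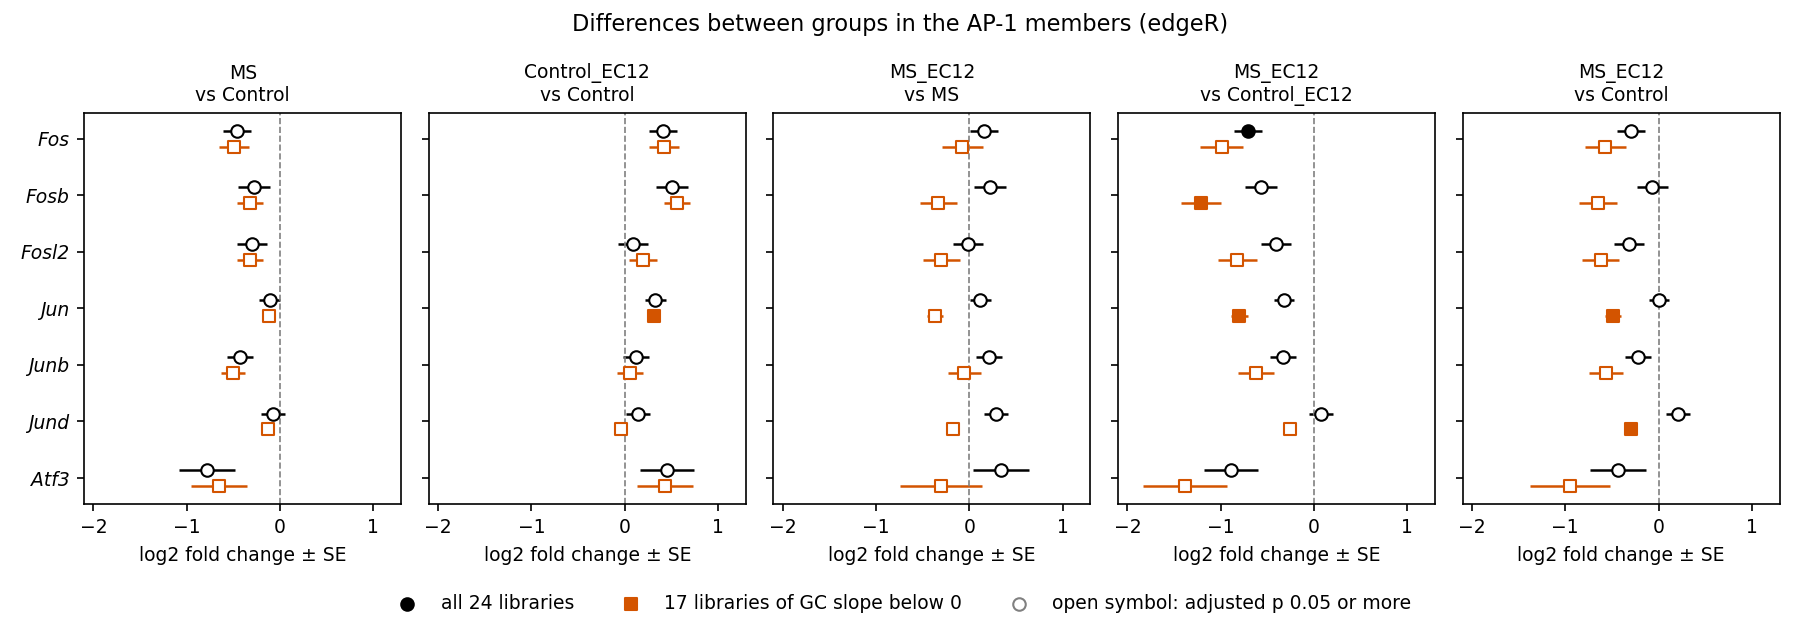
Log2 fold change ± SE of each member in the 5 comparisons between groups, in all 24 libraries (black circles) and in the 17 of GC slope below 0 (orange squares). Filled symbols passed an adjusted p of 0.05: Fos in MS_EC12 vs Control_EC12 among 24 libraries, and Jun, Fosb and Jund at 5 places among 17, where MS_EC12 holds 2 libraries.

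The members differed in how far their level went with the GC slope. The median of Jund was 101 CPM in the 17 libraries of slope below 0 and 143 CPM in the 7 above it, with no overlap. The mean of Jun was 55.4 ± 9.86 and 64.4 ± 7.09 CPM (SD), that of Junb 72.3 ± 16.7 and 82.4 ± 11.3, and that of Fosb 23.8 ± 8.1 and 26.9 ± 4.24. Fos (40.1 ± 12.9 and 41.3 ± 9.51), Fosl2 (51.0 ± 12.7 and 48.2 ± 7.23) and Atf3 (2.67 ± 1.5 and 2.71 ± 1.29) had nearly equal means over these pooled groups. Within MS_EC12, Fosb was 17.2 and 12.7 CPM in the 2 libraries below 0 and 22.65 to 28.69 CPM in the 4 above it, and Fos was 33.7 and 22.97 CPM against 31.3 to 40.75 CPM. Within MS_EC12, Jun, Junb, Jund and Atf3, like Fosb, did not overlap between these 2 and 4 libraries, whereas Fos and Fosl2 did. Over the pooled 17 and 7 libraries, only Jund of the 7 members had ranges that did not overlap. The share of all genes without overlap was not computed for either split, so neither sets the members apart from other genes. The slope was itself computed from the log2 CPM of the tested genes. No test is given, since 4 of the 7 libraries above 0 belong to MS_EC12 and none to Control.

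**Figure D4:**
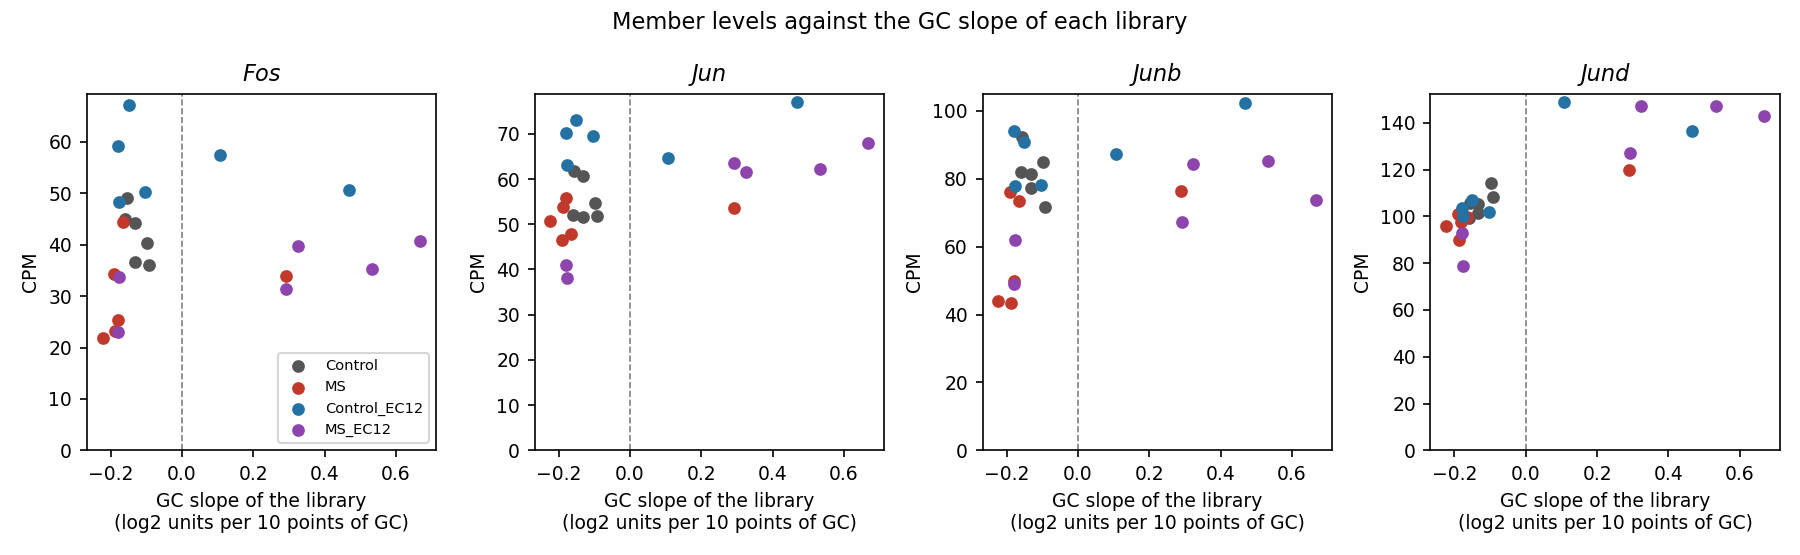
CPM of Fos, Jun, Junb and Jund against the GC slope of each library (log2 units per 10 percentage points of GC), 1 point per library coloured by group, with the dashed line at 0. Jund steps up right of the line in every group that has libraries there. Every Fos value in Control_EC12 lies above every one in MS_EC12, which would hold on both sides of any line.

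Across libraries the members rose and fell together to different degrees. In the 17 libraries of slope below 0, Pearson's r on log2 CPM was above 0 for all 21 pairs, from 0.478 (Junb and Atf3) to 0.932 (Fos and Junb), with a median of 0.662, and 20 pairs passed by permutation after adjustment over the 21. Fos and Junb had rho = 0.887 there and adjusted permutation p-values of 7e-05 for r and 0.00021 for rho, and r was 0.895 without the 2 libraries farthest from the median of Fos. Fos and Fosb followed with r = 0.866 (rho 0.885, adjusted p 7e-05 and 0.00028; 0.794 without the 2 farthest), then Fosb and Jun with 0.848 (rho 0.846, adjusted p 7e-05 and 0.00028; 0.766 without the 2). The permutation p behind 7e-05 is 1e-05, the smallest that 100000 resamples can give. Libraries were permuted without regard to group, so differences between groups can also make a pair pass. Group means were not subtracted within the 17 libraries. In the 7 libraries above 0 the same 3 pairs had r = 0.722, 0.673 and 0.874. There 18 of 21 pairs were above 0 and none passed exact permutation after adjustment.

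Since groups differ, group means were subtracted as well, over all 24 libraries. Fos and Junb then had r = 0.843 (rho 0.83, adjusted permutation p = 0.00189 and 0.00231), Fosb and Jun 0.729, Fosb and Junb 0.69, Fosb and Fosl2 0.683 and Fos and Fosb 0.671. Within MS_EC12, Jun, Fosb and Junb were lower in every library of slope below 0 than in any above it. Subtracting group means does not remove that difference. In total 7 of 21 pairs passed, Fos with Fosb, Fos with Junb, Fosb with Fosl2, Jun and Junb, Fosl2 with Junb, and Junb with Jund. Fos with Jun did not pass (r = 0.285, adjusted permutation p = 0.323). Atf3 had r = −0.0152 with Junb and 0.384 at most, with Jun. No r is printed for Jund over 24 libraries, because its libraries form 2 sets by GC slope. In the 17 libraries its r was 0.526 with Fos and 0.697 with Fosl2. Atf3 was in none of the 7 pairs, and Jund was in 1, over libraries that form those 2 sets.

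**Figure D5:**
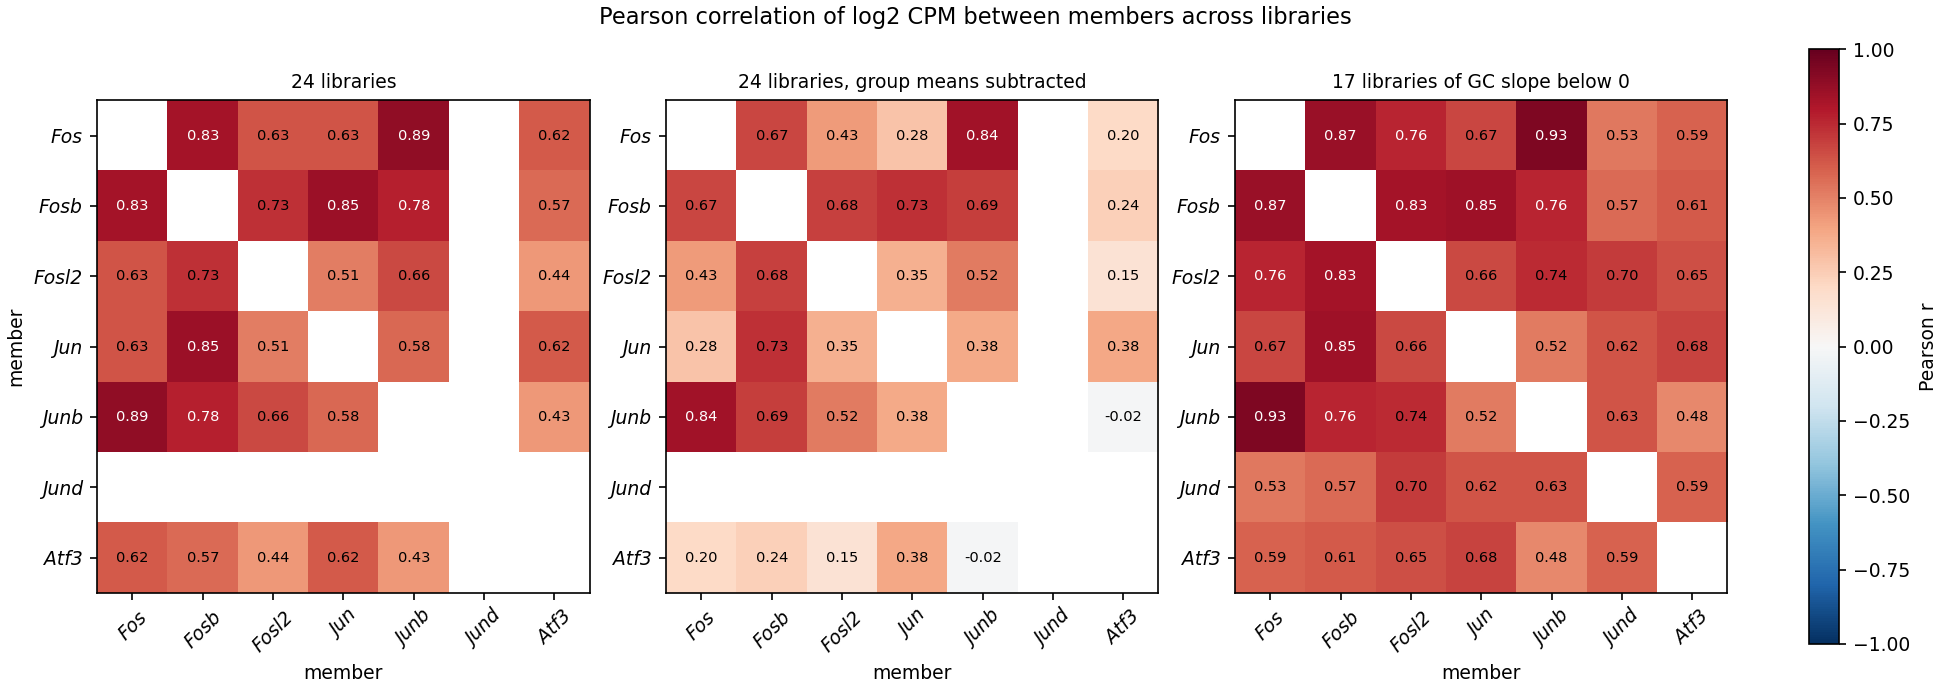
Pearson r of log2 CPM for each pair of members over 24 libraries, over 24 libraries after subtracting group means, and over the 17 libraries of GC slope below 0, with colour from −1 (blue) to 1 (red). Jund is blank where the libraries form 2 sets by GC slope, and the pair of Fos and Junb has the highest r in each panel (0.888, 0.843 and 0.932).

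The genes whose log2 CPM was most like each member over the 24 libraries were named by a fixed count of 3. For Fos they were Nr4a1, an activity-induced nuclear receptor (r = 0.89), Ier2, an immediate early gene (0.864), and Arid5a (0.854). For Junb they were Nr4a1 again (0.923), Nab2, a co-repressor of Egr factors (0.878), and Egr4 (0.869). For Fosb they were Sik1 (0.815), Adgrg1 (0.808) and Arid5a (0.783), and for Fosl2 the nuclear receptor Nr4a3 (0.829), Egr2 (0.818) and Sik1 (0.8). For Jun they were Mcam (0.817), Litaf (0.793) and Gtf2ird1 (0.78), none of them among the listed immediate early genes. Atf3 was nearest to Zfp36, an RNA-binding early gene (0.71), Rps13-ps2 (0.705) and Gm15682 (0.675). For Jund, whose libraries form 2 sets, the values in the 17 libraries were 0.737 with Ypel3, 0.704 with Mbd3 and 0.642 with Nop53. These are maxima over all genes and carry no test.

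The other immediate early genes, 38 genes with the Egr, Nr4a and Dusp families among them, were described in the same fits. In MS against Control 11 of 38 estimates were positive, with a median of −0.26, and none passed, Klf10 (−0.59, adjusted p = 0.0844) and Per1 (−0.55, adjusted p = 0.0944) coming nearest. Among the 17 libraries, where 0.435% of all genes were called, 6 of the 38 fell, among them Per1 (−0.57, adjusted p = 0.000557), Ier5 (−0.44, adjusted p = 0.0043) and Egr4 (−0.70, adjusted p = 0.0112). In Control_EC12 against Control, where all members had positive estimates, 19 of the 38 were positive, the median was 0.00723, and none passed. Homer1, a postsynaptic scaffold gene, had −0.60 (adjusted p = 0.0669). Among the 17 libraries, where Jun rose in this comparison and 0.456% of all genes were called, 3 of the 38 fell: Ier5 (−0.40, adjusted p = 0.0181), Vgf (−0.45, adjusted p = 0.0181) and Homer1 (−0.44, adjusted p = 0.026). In MS_EC12 against Control_EC12, where 0.261% of all genes passed, the median was −0.105 and 1 passed, Nr4a3, which fell by 0.94 ± 0.14 (adjusted p = 0.00162). In MS_EC12 against Control 6 of the 38 fell and 1 rose, where 14.1% of all genes were called, with Nr4a3 (−0.92), Klf10 (−0.57) and Egr2 (−0.81) falling. In MS_EC12 against MS the median was 0.0967 and none passed. Among the 17 libraries, with only 2 of MS_EC12, the medians were −0.298 against Control_EC12, −0.385 against Control and −0.169 against MS. The last is opposite in sign to that over 24 libraries. In the same order 3, 7 and 0 of the 38 fell and none rose, where 0.162%, 1.01% and 0.0733% of all genes were called.

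Listed partners of AP-1 among the other leucine zipper factors, 21 tested of 24, had medians of −0.0421, −0.0558, 0.142, 0.0948 and 0.0721 in MS vs Control, Control_EC12 vs Control, MS_EC12 vs MS, MS_EC12 vs Control_EC12 and MS_EC12 vs Control. Among the 17 libraries the medians were −0.0788, −0.0212, 0.00955, −0.00464 and 0.0177 in the same order. Over 24 libraries calls were made only in MS_EC12 vs Control, in which 14.1% of all genes were called. There 3 rose, among them Atf5 (0.47, adjusted p = 0.0296) and Atf4 (0.19, adjusted p = 0.0444), and 1 fell, Atf2, a partner of Jun (−0.41, adjusted p = 0.0436). Among the 17 libraries none of the 21 passed in that comparison, and 1 rose in MS vs Control, Creb5 (0.80, adjusted p = 0.0471). Of 34 kinases and inducers upstream, 6 fell in MS_EC12 vs Control and none rose, beside the same 14.1% of all genes. Among the 6 were the kinases Map3k13 (−0.49, adjusted p = 0.0158), Map2k4 (−0.34, adjusted p = 0.037) and Mapk10 (−0.30, adjusted p = 0.0425). Among the 17 libraries Map3k13 was the 1 of the 34 to fall there, and none rose. None of the 34 passed in the other comparisons over 24 libraries. Map3k13 fell among the 17 libraries in MS vs Control (−0.33, adjusted p = 0.00802), in Control_EC12 vs Control (−0.44, adjusted p = 0.00194) and in MS_EC12 vs Control (−0.52, adjusted p = 0.00449), and Srf, the serum response factor, fell in MS vs Control (−0.23, adjusted p = 0.0243). Among the 17 libraries these 3 comparisons called 0.435%, 0.456% and 1.01% of all genes.

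Of 19 tested genes listed as AP-1 targets, 2 rose and 1 fell in MS_EC12 vs Control: Hmox1, the haem oxygenase (0.41, adjusted p = 0.0326), and Mt2, a metallothionein (0.53, adjusted p = 0.0417), rose, and Vegfa, a vascular growth factor, fell (−0.29, adjusted p = 0.0436). Among the 17 libraries none rose and Vegfa fell (−0.40, adjusted p = 0.0373), with Hmox1 at 0.27 (adjusted p = 0.398). None passed in the other comparisons over 24 libraries. In MS_EC12 vs Control_EC12, where Fos fell, the median of the 19 was 0.0685 and 11 were positive. Among the 17 libraries that median was −0.0125 and 9 were positive. The 14 genes of the integrated stress response, in which Atf3 acts downstream of Atf4, counted 3 rises and 2 falls in MS_EC12 vs Control, with Ppp1r15a (0.33, adjusted p = 0.0394) rising and Slc7a11 (−0.93, adjusted p = 0.0181) falling. Their medians were 0.00103 in MS vs Control and 0.0383 in Control_EC12 vs Control, and none passed in either. Atf4 stands in this list and among the leucine zipper factors. The counts in MS_EC12 vs Control stand beside the 14.1% of all genes called there, or 1.01% among the 17 libraries.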

How the data were processed

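Total RNA of the prefrontal cortex was sequenced from TruSeq stranded mRNA libraries, per the labels' protocols. The deposited table holds a whole-number read count, an FPKM and a TPM for each gene and library, per the file headers. FPKM and TPM are the authors' length- and depth-normalized values, and FPKM was not used. Build mm10 and the tools HISAT2 2.1.0, StringTie 2.1.3b, Trimmomatic 0.38, FastQC 0.11.7 and DESeq2 are listed, with no role, per the submitters' processing notes. No source used here gives the counting rule or strand setting. No row lacked a gene, and 99.79% of Gene IDs were found in RefSeq.

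Counts were tested with edgeR 4.0.16 (R 4.3.3): TMM scaling, filterByExpr by group (minimum count 10, minimum total 15), 1 coefficient per group over 24 libraries, the 2-sided quasi-likelihood F test, and Benjamini-Hochberg adjustment over 18380 genes with a threshold of 0.05. SE is the fold change divided by the root of F. Log2 CPM used a prior count of 2. The GC slope is the slope of a library's log2 CPM, relative to the mean of libraries, on exonic GC content, which 91.94% of tested genes had. The count test was tested on simulated data. Alternatives were limma 3.58.1 on log2(TPM + 1) and log2(TPM + 0.1), DESeq2 1.42.0, RLE scaling, no filter, a filter of 1 CPM in 6 libraries, only the groups compared, a replicate block, the GC slope as a covariate, the 17 libraries of slope below 0 and each library left out. Libraries differed by more than counting noise (smallest chi-square per gene 5.02), so none was merged.

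All 7 members were named in each comparison. From 5 context lists, up to 3 genes per list and comparison were named, those that passed first and then by smallest p, and for each member the 3 genes of highest Pearson r. The members and lists were chosen with earlier results of these data known. Promoter and locus positions are from RefSeq (GRCm38.p6), and the window was found for 7 of 7 members.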

Additional observations from a re-analysis of the deposited data

How the results depend on the processing

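Of 546 results of single members under settings other than leaving out 1 library, 483 kept their direction and side of the threshold and 46 changed sign, 2 of them with a call. With the sign kept, 12 gained a call and 5 lost one. Of 1008 with 1 library left out, 972 were kept and 23 changed sign.

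The number of members called was 2 in MS vs Control with the GC slope as a covariate and a replicate block (Fos, Junb), and 1 in Control_EC12 vs Control in the 17 libraries. In MS_EC12 vs Control_EC12 it was 0 without a filter, with only the groups compared, without the 2 libraries of high Ttr and in the libraries of slope above 0, 3 with the GC covariate, 4 with that covariate and the replicate block, 2 in the 17 libraries, and 0 to 1 with 1 library left out. In MS_EC12 vs Control it was 2 in the 17 libraries, 1 with the olfactory bulb covariate and 0 to 1 with 1 left out, in MS_EC12 vs MS 0 to 1 with 1 left out, and in the interaction 1 in the 17 libraries. The cause of these changes was not tested. Over all genes, MS_EC12 vs Control_EC12 had 41 of 18380 called with the GC covariate, 84 with that covariate and the block, and 31 of 19098 in the 17 libraries. The covariate with the block called 71 of 18380 in MS vs Control. The 17 libraries called 87 of 19098 in Control_EC12 vs Control, 193 in MS_EC12 vs Control and 2 in the interaction. The bulb covariate called 966 of 18380 in MS_EC12 vs Control. By CPM per kilobase 3 of 7 level ranks were the same. Passing pairs numbered 18 of 21 over 24 libraries, 7 with group means subtracted and 0 in the 7 libraries of slope above 0. The fits without the high-Ttr libraries, with the bulb covariate and in the libraries of slope above 0 were chosen after seeing the data.

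Signs changed as follows, in log2 fold changes. With the GC covariate, MS_EC12 vs MS had Fosb −0.054, Jun −0.12, Junb −0.012 and Jund −0.054, MS_EC12 vs Control_EC12 Jund −0.17, MS_EC12 vs Control Jun −0.24 and Jund −0.15, and the interaction Junb −0.049 and Jund −0.074. With that covariate and the replicate block, Control_EC12 vs Control had Junb −0.016, MS_EC12 vs MS Fos −0.20, Fosb −0.16, Jun −0.19, Junb −0.14, Jund −0.092 and Atf3 −0.028, MS_EC12 vs Control_EC12 Jund −0.19, MS_EC12 vs Control Jun −0.31 and Jund −0.18, and the interaction Junb −0.12 and Jund −0.10. In the 17 libraries, Control_EC12 vs Control had Jund −0.038, MS_EC12 vs MS Fos −0.076, Fosb −0.33, Jun −0.37, Junb −0.052, Jund −0.17 and Atf3 −0.30, MS_EC12 vs Control_EC12 Jund −0.26, MS_EC12 vs Control Jun −0.49 and Jund −0.30, and the interaction Junb −0.11 and Jund −0.14. By limma on log2(TPM + 1) and log2(TPM + 0.1), Jun had −0.025 and −0.026 in MS_EC12 vs MS and −0.13 and −0.14 in MS_EC12 vs Control, and Jund −0.019 and −0.020 in MS_EC12 vs Control_EC12. Without the high-Ttr libraries Fosl2 had 0.051 in MS_EC12 vs MS and Jun −0.048 in MS_EC12 vs Control. With the bulb covariate Fosl2 had −0.039 and Junb −0.069 in Control_EC12 vs Control, and Fos −0.0045 in MS_EC12 vs MS. In the libraries of slope above 0 Jund had −0.0054 in MS_EC12 vs Control_EC12. With 1 library left out, Fosl2 ran from −0.022 to 0.18 in Control_EC12 vs Control and from −0.095 to 0.062 in MS_EC12 vs MS, Fosb from −0.14 to 0.055 and Jun from −0.048 to 0.10 in MS_EC12 vs Control, and Atf3 from −0.30 to 0.15 in the interaction.

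With the replicate block alone, Fos in MS_EC12 vs Control_EC12 had −0.68 (adjusted p = 0.0349) and Jun in MS_EC12 vs Control −0.010, and the number of members called changed in no comparison. Over all genes, calls in MS_EC12 vs MS went from 30 to 3809 with the block. Deviations of libraries of the same number in different groups correlated from −0.30 to 0.57. By pair of groups the mean r of these same-number libraries was 0.048 to 0.18, and that of libraries of different numbers −0.032 to −0.0095. The latter is no independent reference, because deviations from a group mean cancel over the group and pull it below the former. No label ties the numbers to pairs, so the main fit did not use them, and whether they mark a batch was not tested.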
